A study of Drosophila melanogaster with 16 samples.

Results

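The 5 genes described here, fru, dsx, Sxl, tra and tra2, form the core of the sex determination pathway of *Drosophila melanogaster*. They are 5 of 13946 protein-coding genes placed on the main chromosome sequences. What is described is every peak of 2 histone marks that overlaps one of them or the 1000 bp on either side of it. That rule takes 218 of 137826 peaks. For H3K4me1 there were 83 in the list of day 10 and 62 in that of day 50, and for H3K27ac 38 and 35. The peaks come from whole heads of male adults of the white-eyed laboratory strain w1118, given as wild type in the labels, aged 10 or 50 days, with no treatment named. H3K4me1, monomethylation of histone H3 at lysine 4, lies at enhancers and along transcribed genes, whereas H3K27ac, acetylation at lysine 27, marks active promoters and enhancers. Each mark and age had 2 chromatin immunoprecipitation and 2 input samples, and each peak list was called on both replicates together, so 4 lists stand for 16 samples. With 1 list per mark and age, neither the replicate spread nor a test between the ages can be had. Every difference below is one between 2 lists, and the read depth behind them is unknown. All samples are male, so no sex difference can be read from them.

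Sex in the fly is set by a cascade of splicing decisions. Sxl, an RNA-binding protein made in full length only in females, controls splicing of its own transcript and of tra, and Tra acts with the RNA-binding protein Tra2 on transcripts of dsx and fru. In males, Sxl and tra are transcribed but their transcripts carry early stop codons, dsx is spliced to its male form, and transcripts of fru from its most distal promoter give the male proteins that organise courtship circuits. In the head, Fru and Dsx act in particular sets of neurons, which are a small part of the tissue, and Dsx also acts in fat body. In a whole head, fewer cells that carry a mark and less of the mark in each cell cannot be told apart.

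All 5 genes had peaks of both marks at both ages. Relative to the length of the region, the short tra and tra2 were the most covered by H3K4me1, and the 3 longer genes were covered less and had a lower H3K4me1 share at day 50 than at day 10. The share of the region under H3K4me1 peaks was 10.4% at day 10 and 8.49% at day 50 for fru, 14.5% and 10.3% for dsx, and 8.69% and 5.98% for Sxl. It was 57.7% and 58.5% for tra, and 29.6% and 30.2% for tra2. H3K27ac covered 3.20% and 2.38% of the fru region, 4.10% and 4.13% of that of dsx, and 11.9% and 10.6% of that of Sxl. It covered 11.2% and 16% of the tra region and 20.1% and 27.3% of that of tra2. The order of the genes by H3K4me1 share was tra, tra2, dsx, fru and Sxl at both ages, and fru had the lowest H3K27ac share at both.

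**Figure D1:**
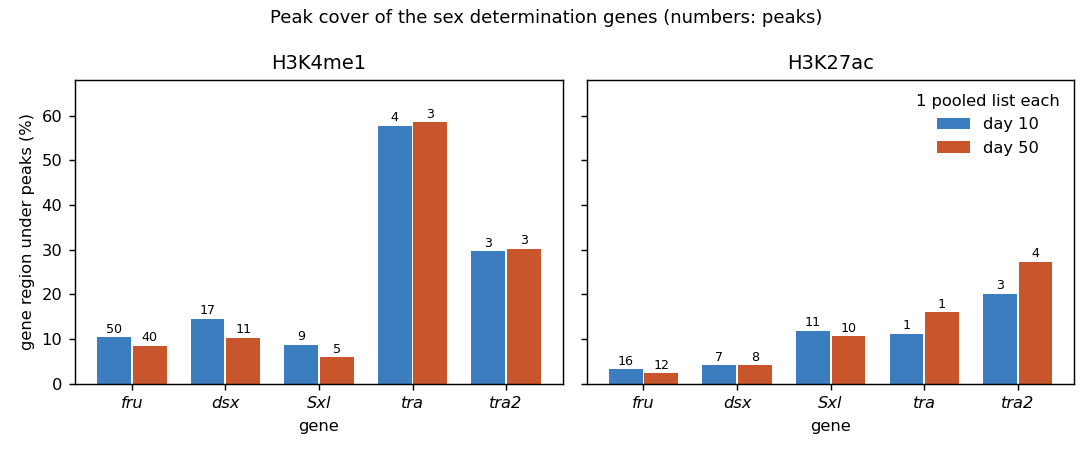
Share of each gene with its flanks of 1000 bp under peaks, in percent, for H3K4me1 and H3K27ac at day 10 (blue) and day 50 (orange). Each bar is 1 pooled peak list, without an error bar, and the number above it counts the peaks. The H3K4me1 bars of fru, dsx and Sxl are lower at day 50 and those of tra and tra2 differ by less than 1 percentage point.

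Thus 3 of 5 members had a lower H3K4me1 share at day 50 and 2 a higher one. Over all protein-coding genes 36.7% were lower and 39.5% higher, and over those with an H3K4me1 peak at either age 48.0% and 51.7%. For H3K27ac, 2 of 5 were lower and 3 higher, against 18.5% and 47.1% of all genes and 28.1% and 71.6% of those with a peak. The median difference, day 50 minus day 10, was -1.90 percentage points for H3K4me1 over the 5 members, 0 over all genes and 0.148 over genes with a peak. For H3K27ac it was 0.0288 over the members, 0 over all genes and 1.73 over genes with a peak. The H3K27ac split of the members turned to 2 higher and 3 lower with peaks under a -log10 q of 5 left out, and likewise over gene bodies alone. None of the 5 reached a 1.5-fold difference in covered bases in either mark. By that measure 7.63% of all genes were lower and 10.3% higher for H3K4me1 (9.99% and 13.5% of those with a peak), and 5.13% and 15.0% for H3K27ac (7.81% and 22.7%). Gene length matters for these comparisons, since of the 476 H3K4me1-marked regions of at least 40 kb, a length class chosen after the values were seen, 86.3% were lower and 13.7% higher at day 50, and the median difference was -1.76. For H3K27ac 78.9% of 445 such regions were lower and 21.1% higher, with a median of -1.65. Past 1.5-fold, 20.0% of these long regions were lower and 3.36% higher for H3K4me1, and 39.3% and 7.19% for H3K27ac. fru and dsx belong to that class, and the H3K4me1 differences of fru (-1.90) and dsx (-4.11) go the way most of it goes. For H3K27ac fru (-0.817) does so and dsx (0.0288) does not. Over all genes with an H3K4me1 peak, 31.0% had a more negative difference than fru, 25.4% than Sxl and 17.6% than dsx.

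As a check of the labelled tissue, the neuronal genes elav, nSyb, Syt1 and brp had peaks of both marks at both ages. In H3K4me1 3 of these 4 were lower at day 50, as were 48.0% of all genes with a peak. Of these 3, nSyb had 53.6% and 44.2%, brp 26.5% and 20.9%, and elav 21.7% and 19.7%. Syt1 had 9.82% and 10.2%, and the median difference of the 4 was -3.78 percentage points. In H3K27ac 2 of the 4 were higher and 2 lower, against 71.6% and 28.1% of all genes with a peak. Of 3 photoreceptor genes, the rhodopsin gene ninaE had 8.81% and 13.2% under H3K4me1, the channel gene trp 21.7% and 13.1%, and chp 3.68% and 0%. H3K27ac covered 0% and 4.58% of ninaE and 10.7% and 4.18% of trp, and chp had none. Of 3 glial genes, the regulator repo had H3K4me1 over 47.3% and 47.8% of its region and no H3K27ac peak, while H3K27ac covered 21.9% and 33.6% of moody and 14.4% and 18.5% of the transporter gene Eaat1. Of 4 germline genes, bam had no peak in any list and aly only 1 H3K4me1 peak at day 50. The other 2 had peaks of both marks at both ages: vas had 15.6% of its region under H3K4me1 at either age, and can 3.77% and 5.92%. H3K27ac covered 12.3% and 13.9% of vas and 19.6% and 6.98% of can. At day 10 can thus had more H3K27ac than the neuronal genes nSyb (15.2%) and Syt1 (3.79%) and less than brp (20.4%) and elav (24.0%). The fat body genes FASN1 and Lsd-1 differed most in H3K4me1 between ages among the 16 marker genes, with shares of 28.1% and 49.7% and of 10.3% and 35.1% at days 10 and 50. The part of such differences between cell types in the values of the sex determination genes was not tested.

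fru, which encodes BTB zinc finger transcription factors, spans 131314 bp on 3R (3R:18414273-18545586, Release 6), and no other protein-coding gene overlaps its region. The gene table used gives no strand, exons or promoters, so positions are given as the distance from the end with the lower coordinate. The region held 50 H3K4me1 peaks at day 10 and 40 at day 50, covering 13852 and 11317 bp, and 16 and 12 H3K27ac peaks, covering 4268 and 3179 bp. Neither mark had a peak in the 1000 bp below the gene or in its first 20 kb, whereas H3K4me1 peaks were spread over most of the rest. H3K27ac peaks were grouped at 3 places in both lists. The first group ran from 21.9 kb at day 10 and from 24.2 kb at day 50 up to 34.7 kb. The second began near 41.5 kb and reached 43.3 kb at day 10 and 42.5 kb at day 50. The last lay around the end with the higher coordinate, from 130.8 to 132.6 kb.

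The strongest H3K27ac peak of fru lay at that higher end at both ages. At day 10 it ran from 18546354 to 18546896 with a fold enrichment of 4.45, a fold that 98.2% of the list did not exceed, and at day 50 from 18546369 to 18546918 with a fold of 4.27, at 94.5%. These folds are the values of the authors' peak caller over its local background, and the percentages rank each peak within its own list only. It lies just outside the annotated gene, and an H3K4me1 peak overlapped it at both ages (folds 2.99 and 2.66). The gene end itself was under an H3K27ac peak at both ages, of 357 bp and fold 2.56 at day 10 and of 862 bp and fold 3.53 at day 50. The wider peak of day 50 also took in the place of a separate day 10 peak of 323 bp. At the opposite end of fru no peak of either mark lay within 500 bp at either age. Over all protein-coding genes, 34.4% of gene ends had an H3K27ac peak within 500 bp at day 10 and 37.3% at day 50, and 42.4% and 43.1% had an H3K4me1 peak.

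**Figure D2:**
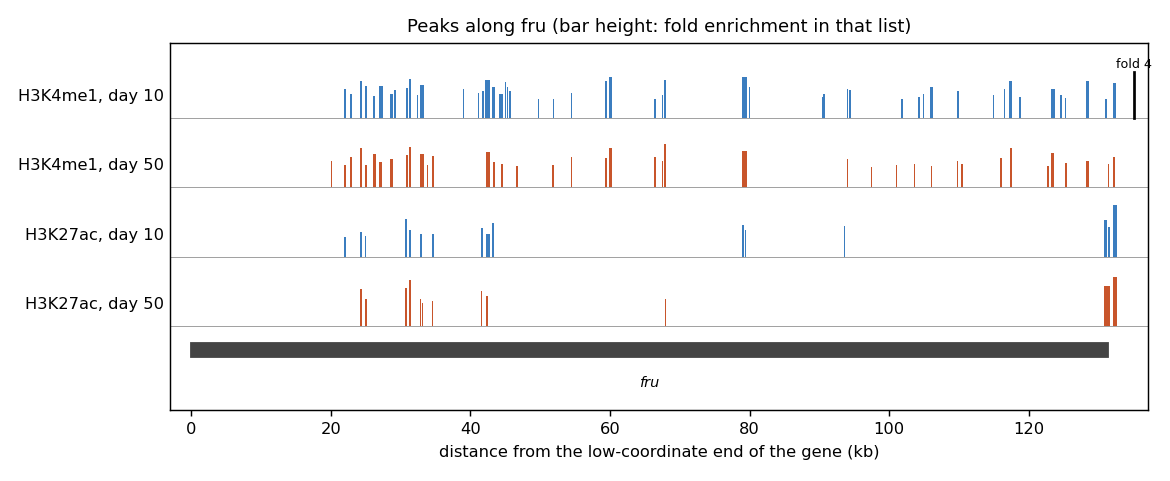
Peaks along fru in the 4 pooled lists, with the distance from the low-coordinate end of the gene in kb on the x axis. Each bar spans a peak, its height is the fold enrichment within its list (scale bar: fold 4), blue is day 10, orange is day 50, and the dark box is the gene. H3K27ac peaks cluster below 43.3 kb and at the high-coordinate end in both lists. Between these, the H3K27ac peaks near 79 and 94 kb appear at day 10 only and the one near 68 kb at day 50 only.

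Some H3K4me1 sites inside fru carried H3K27ac at 1 age only. With overlapping peaks of the 4 lists joined into sites, 4.92% of fru sites had H3K4me1 at both ages and H3K27ac at day 10 only. Over the whole genome 3.99% of sites did. With H3K27ac at day 50 only these shares were 1.64% and 4.00%. Of the 16 H3K27ac peaks of day 10 in fru, 11 had a day 50 counterpart (68.8%), against 61.6% in regions of at least 40 kb. The site at about 79 kb had an H3K4me1 peak of 731 bp and fold 3.55 at day 10 (3R:18493121-18493851), the widest of the gene in that list, and of 599 bp and fold 3.12 at day 50. Over it lay 2 H3K27ac peaks at day 10, with folds of 2.74 and 2.30, and none at day 50. Another site, at about 68 kb, had the highest H3K4me1 fold of the gene at day 50 (3.74, 3R:18481940-18482258) and a fold of 3.32 at day 10. It had no H3K27ac peak at day 10 and 1 of fold 2.37 at day 50. A further H3K27ac peak at 93.5 kb (fold 2.68) was called at day 10 only and had no H3K4me1 peak over it. As a result, the longest stretch of fru without an H3K27ac peak was 37.1 kb at day 10, from 93.7 to 130.8 kb, and 62.8 kb at day 50, from 68 to 130.8 kb. Other sites that kept H3K4me1 in both lists and had H3K27ac at day 10 only were those at 21.9 and 43.2 kb, with H3K27ac folds of 1.7 and 2.94.

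In windows of 10 kb, the H3K4me1 difference of fru was largest from 40 to 50 kb, where 2370 bp were under peaks at day 10 and 1281 bp at day 50, followed by the window from 100 to 110 kb with 1292 and 718 bp. Between 20 and 40 kb the values were nearly equal, with 2502 and 2463 bp in the first window and 1389 and 1495 bp in the second. That second window had the largest excess of H3K4me1 at day 50 among those inside the gene. For H3K27ac the largest difference was the one at 79 kb, in the window from 70 to 80 kb, with 507 bp at day 10 and 0 at day 50. The window from 40 to 50 kb had 984 and 478 bp. In the short last window, up to the high-coordinate end, H3K27ac covered more at day 50, with 354 and 546 bp. Over the whole region the H3K27ac difference, -0.817 percentage points, came to 0.181 with the 50% of peaks highest in -log10 q.

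When overlapping peaks of the 4 lists were joined, fru had 61 sites. Of these, 18 had H3K4me1 at both ages and no H3K27ac, 19 had H3K4me1 at day 10 only, 9 had it at day 50 only, both without H3K27ac, and 8 were present in all 4 lists. The remaining 7 sites mixed the marks in other ways, 3 of them with H3K4me1 at both ages and H3K27ac at day 10 only. Sites of H3K4me1 at day 10 only without H3K27ac made up 31.1% of the fru sites and 11.4% of the 55738 sites of the whole genome. For H3K4me1 at both ages without H3K27ac these shares were 29.5% and 26.8%, and for day 50 only 14.8% and 9.97%. Sites present in all 4 lists made up 13.1% and 22.8%. No such share is given for the regions of at least 40 kb. The H3K4me1 peaks of day 10 with no counterpart at day 50 were weaker than those with one: the 21 peaks without had a median fold of 2.11 (range 1.65 to 3.11) and the 29 with had 2.64 (1.62 to 3.57). The same was true of the whole list, with medians of 2.19 and 2.65. For H3K27ac the order in fru was the opposite, with a median fold of 2.68 for the 5 peaks without a counterpart and 2.35 for the 11 with one, against 2.15 and 2.64 in the whole list. The 2 sets of fru H3K27ac peaks overlapped widely in fold, from 1.7 to 2.94 and from 1.82 to 4.45.

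dsx, which encodes the DM-domain transcription factors that direct most sexual differentiation of the body and of a set of neurons, spans 43086 bp (3R:7924323-7967408). Its H3K4me1 peaks numbered 17 at day 10 and 11 at day 50, covering 6516 and 4662 bp, and its H3K27ac peaks 7 and 8, covering 1850 and 1863 bp. H3K27ac thus covered nearly the same number of bases at both ages while H3K4me1 covered 1.40 times as many at day 10 as at day 50. Of the 17 H3K4me1 peaks of day 10, 8 had no peak over them at day 50, and of the 11 of day 50, 1 had none at day 10. Overlap with the other age was found for 70.2% and 83.1% of the H3K4me1 peaks of days 10 and 50 in regions of at least 40 kb. The strongest H3K4me1 peak was the same at both ages, at 39.1 kb (3R:7963462-7963887 at day 10), with folds of 3.74 and 3.61. The strongest H3K27ac peak lay at 23.8 kb at both ages, with folds of 3.37 and 2.82.

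The H3K4me1 differences in dsx were greatest in the middle of the gene. The longest stretch without an H3K4me1 peak ran from 27.8 to 35.7 kb at day 10 and from 24.0 to 38.2 kb at day 50. Peaks at 25.0, 25.2, 27.6 and 35.7 kb, with folds of 2.58, 2.64, 2.06 and 2.14, stood in that stretch at day 10 only. From 20 to 25 kb H3K4me1 covered 1391 bp at day 10 and 833 bp at day 50, from 25 to 30 kb 500 bp and 0, and from 35 to 40 kb 1380 and 950 bp. The strong sites at 12.5 and 14.2 kb were present at both ages, with folds of 3.16 and 3.27 at day 10, and the second was split into 2 peaks at day 50. H3K27ac peaks were absent from the first 20 kb at both ages. At 2 sites, at 25.0 and 40.5 kb, H3K4me1 was called at day 10 only (folds 2.58 and 2.87) and H3K27ac at day 50 only (2.79 and 2.22). The lowest of these folds equalled or exceeded 27.1% of its list. Sites of this pattern made up 11.1% of the 18 joined sites of dsx and 0.64% of the 55738 of the whole genome. The H3K4me1 difference of dsx, -4.11 percentage points, came to -0.359 once peaks with a -log10 q under 5 were left out, and its H3K27ac difference, 0.0288, to -1.23.

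Sxl, the female switch gene, spans 23504 bp on the X chromosome (X:7074550-7098053). It was the only one of the 5 members in which H3K27ac covered more of the region than H3K4me1 at both ages, with 3032 against 2217 bp at day 10 and 2716 against 1524 bp at day 50. Among genes with peaks of both marks, H3K27ac covered more in 18.6% at day 10 and in 22.6% at day 50. H3K4me1 peaks numbered 9 and 5 and H3K27ac peaks 11 and 10. All 5 H3K4me1 peaks of day 50 lay over one of day 10. The 4 H3K4me1 peaks of day 10 with no counterpart, at 10.1, 14.9, 17.3 and 19.7 kb, included the strongest of that list in the gene, at 17.3 kb with a fold of 3.16. All 4 overlapped an H3K27ac peak at day 10, and at 3 of these sites H3K27ac was called at day 50 too. At 17.3 kb neither mark was called at day 50.

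The strongest H3K27ac peak of Sxl, at 21.2 kb (X:7095794-7096327 at day 10), had folds of 3.79 and 4.12 at days 10 and 50. It was at 93.2% and 93.0% within its lists. Together with its neighbours it formed a block towards the high-coordinate end in which H3K27ac covered 1268 bp at day 10 and 1532 bp at day 50, in the window from 20 to 23.5 kb. In the other windows of the gene the H3K27ac cover was equal or lower at day 50, as in that from 15 to 20 kb with 859 and 601 bp. No peak of either mark lay within 500 bp of either end of Sxl. Of the 10 H3K27ac peaks of day 50, 3 overlapped an H3K4me1 peak (30.0%, exact 95% interval 6.67 to 65.2), and of the 11 at day 10, 7 did (63.6%, 30.8 to 89.1). The intervals overlap. The corresponding shares of the whole lists were 68.4% and 68.2%. The H3K4me1 difference of Sxl, -2.72 percentage points, came to -0.855 without peaks of a -log10 q under 5, and that of fru to -1.04.

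**Figure D3:**
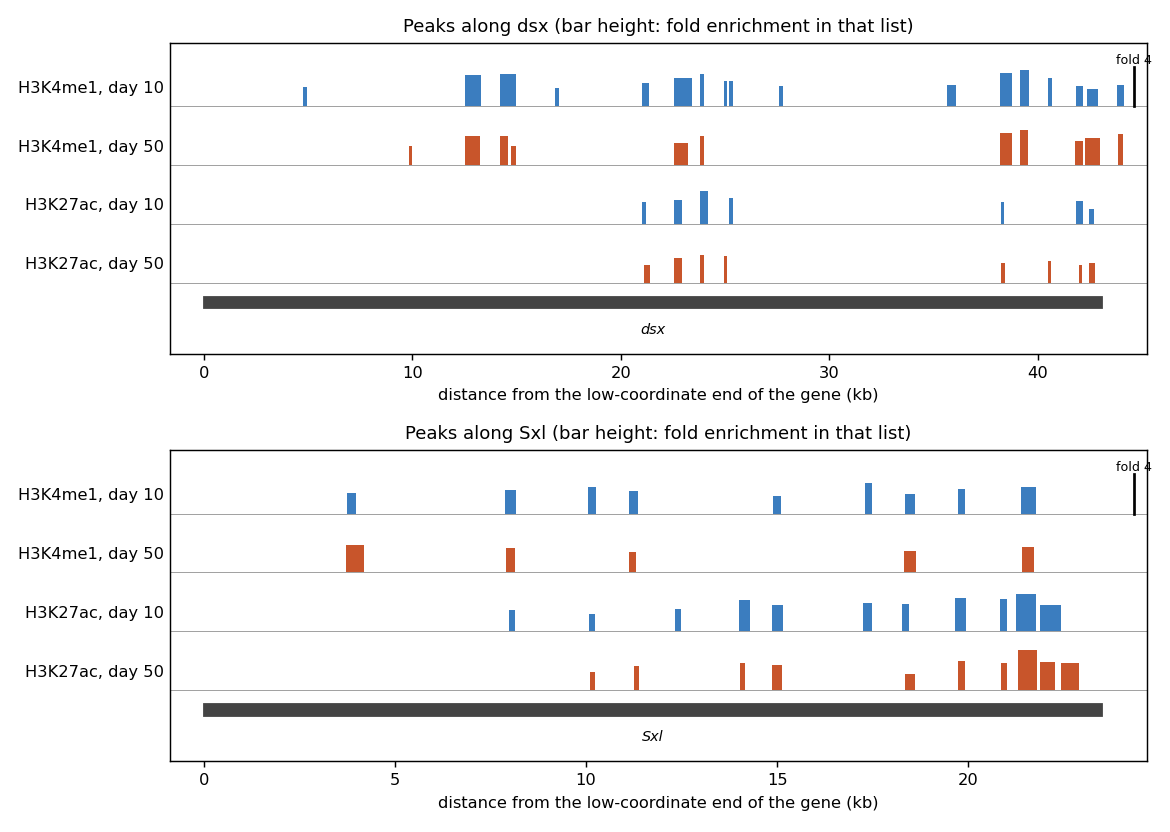
Peaks along dsx (top) and Sxl (bottom) in the 4 pooled lists, drawn by distance from the low-coordinate end of the gene in kb, with bar height as the fold enrichment within the list (scale bar: fold 4), day 10 in blue and day 50 in orange. In dsx the stretch from 24.0 to 38.2 kb has no H3K4me1 peak at day 50, and in Sxl the block of H3K27ac at 21.2 kb is present at both ages while H3K4me1 peaks number 9 and 5.

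The splicing genes at the centre of the cascade were compact, and their H3K4me1 differences were 0.836 percentage points for tra and 0.623 for tra2. With the 50% of peaks highest in -log10 q, that of the tra region came to 15.3, past those of fru, dsx and Sxl in size under the same setting. At day 10 this setting left out the peaks inside the neighbouring gene spd-2 (-log10 q of 7.27 and 3.8). At day 50 it kept the peak there (13.8). Over the gene body of tra alone, with all peaks, the H3K4me1 difference was 0.605. tra spans only 992 bp (3L:16590059-16591050). It overlaps l(3)73Ah by 73 bp and lies 157 bp from spd-2, so its region of 2992 bp holds peaks that belong as much to these neighbours. Within the gene body there was 1 H3K4me1 peak at each age, of 549 bp and fold 3.43 at day 10 and of 555 bp and fold 3.57 at day 50. The single H3K27ac peak ended at nearly the same base at both ages and was longer at day 50, with 334 bp and fold 3.32 at day 10 and 479 bp and fold 3.5 at day 50. Its share of the gene body was 33.7% and 48.3%. H3K4me1 and H3K27ac peaks of tra did not overlap at day 10 and did at day 50, which rests on the edge of 1 called peak. At day 10 the H3K4me1 peak ended at 0.624 kb and the H3K27ac peak began at 0.641 kb. At day 50 these edges were at 0.621 and 0.495 kb. The highest H3K4me1 folds of the region, 3.73 and 4.44, belonged to a peak inside l(3)73Ah, and the widest H3K4me1 peak at day 50, of 1256 bp, lay inside spd-2.

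tra2 spans 2334 bp (2R:14602004-14604337) and has Polr1A, Blos1 and CG12868 within its region of 4334 bp. In its body 2 H3K4me1 peaks stood at both ages, at 0.343 and 1.10 kb at day 10, the second with folds of 3.82 and 4.37, ranks of 95.4% and 98.7% within the lists. A single H3K27ac peak of 252 bp at day 10 and 223 bp at day 50, with folds of 3.23 and 3.30, lay past both of them at about 1.9 kb. Over the gene body alone H3K27ac covered 10.8% at day 10 and 9.55% at day 50, the opposite of the order in the whole region. The higher value of the region at day 50 (1183 bp against 870 bp) came mainly from a peak of 309 bp and fold 1.91 inside Blos1, called at day 50 only. The H3K27ac difference of the region, 7.22 percentage points, came to 0.0923 without peaks of a -log10 q under 5, and to 10.8 with the 50% of peaks highest in it.

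**Figure D4:**
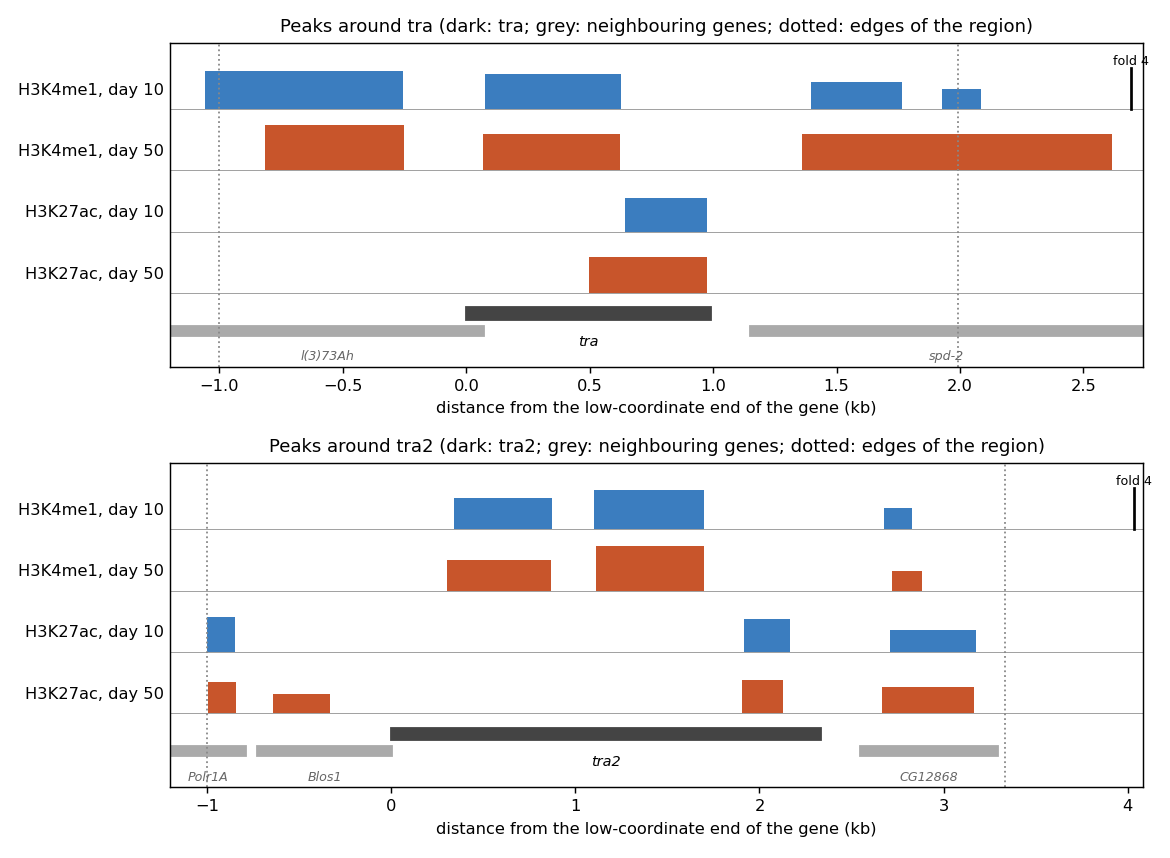
Peaks around tra (top) and tra2 (bottom) in the 4 pooled lists, by distance from the low-coordinate end of the gene in kb, with bar height as the fold enrichment within the list (scale bar: fold 4), day 10 in blue and day 50 in orange. Dark boxes are tra and tra2, grey boxes their neighbours and dotted lines the edges of the regions. The H3K27ac peak of tra spans 334 bp at day 10 and 479 bp at day 50, and several peaks of both regions lie in neighbouring genes.

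Taking the peaks of all 5 genes, 50 of the 83 H3K4me1 peaks of day 10 had a day 50 peak over them by at least 1 base (60.2%, exact 95% interval 48.9 to 70.8, counting error only). In the whole list this share was 79.4%, and for peaks in regions of at least 40 kb it was 70.2%. In fru it was 58.0% (29 of 50), in dsx 52.9% (9 of 17) and in Sxl 55.6% (5 of 9), while all 4 peaks of tra and all 3 of tra2 had a counterpart. In the other direction, 50 of 62 day 50 peaks had a day 10 peak (80.6%, 68.6 to 89.6), against 83.2% of the whole list and 83.1% in the long regions. For H3K27ac, 29 of 38 day 10 peaks (76.3%, 59.8 to 88.6) and 29 of 35 day 50 peaks (82.9%, 66.4 to 93.4) had a counterpart at the other age, against 76.0% and 80.0% of the whole lists and 61.6% and 81.3% in regions of at least 40 kb. The H3K27ac shares of the members were thus close to those of the whole lists. The interval of the H3K4me1 share of day 10 lay below the value of its list but took in that of the long regions. However, the 60.2% pools fru and dsx with Sxl, tra and tra2, whose regions are shorter than 40 kb. The H3K4me1 shares of day 10 in fru (interval 43.2 to 71.8) and dsx (27.8 to 77.0) were both below the 70.2% of the long regions. Both intervals took in that value. Peaks of 1 gene are not independent of each other, so the intervals are too narrow.

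Over the 5 genes, 28 of 38 H3K27ac peaks overlapped an H3K4me1 peak at day 10 (73.7%, 56.9 to 86.6) and 21 of 35 at day 50 (60.0%, 42.1 to 76.1), against 68.2% and 68.4% of the whole lists and 67.6% and 67.5% in the long regions. Without peaks of a -log10 q under 5 the shares of the members were 53.6% and 42.3%, and with the 50% of peaks highest in it 42.1% and 40%. No whole-list share under these settings is given, so these values cannot be set against 68.2% and 68.4%, which include all peaks. The genes differed in this at day 50, with 11 of 12 in fru, 5 of 8 in dsx, 3 of 10 in Sxl, 1 of 1 in tra and 1 of 4 in tra2. At day 10 the numbers were 13 of 16, 7 of 7, 7 of 11, 0 of 1 and 1 of 3. Of the H3K4me1 peaks, 32.5% at day 10 and 32.3% at day 50 carried H3K27ac, against 40.2% and 40.1% of the whole lists. With 24.0% and 25.0%, fru had the lowest share of the 3 longer genes at both ages.

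A list of 41 other genes of the pathway was examined by the same measure. For H3K4me1, 22 had a lower share at day 50 and 11 a higher one, while 8 lacked peaks at both ages. Of the 33 with a peak 66.7% were lower, against 48.0% of all genes with a peak, and their median difference was -1.31 against 0.148. For H3K27ac, 24 were higher, 5 lower and 12 without a peak. Of the 29 with a peak 82.8% were higher, against 71.6% of all genes with a peak, and their median difference was 1.7 against 1.73. Among the 50% of peaks with the highest -log10 q in each list, the H3K27ac numbers were 14 higher and 11 lower.

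Of 8 genes that act in X counting and the control of Sxl in the embryo, 3 had no peak of either mark in these adult heads. They were sc, upd1 and dpn. Over all 13946 genes, 10652 had an H3K4me1 peak at either age and 9171 an H3K27ac peak. The X-linked counting gene sisA had a single H3K4me1 peak at day 10 (5.47% of its region) and none at day 50, and run, which encodes a Runt-domain factor, had 11.6% and 7.66%. emc, an inhibitor of basic helix-loop-helix factors, had 20.2% and 16.2% under H3K4me1, and the widely expressed da and gro had over 40% at both ages. H3K27ac covered 73.4% and 74.2% of the emc region. The values were 5.08% and 5.38% for gro and 4.13% and 4.11% for da.

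All 8 genes of the Sxl splicing cofactors and the RNA methylation machinery had peaks of both marks. vir, a subunit of the m6A methyltransferase complex needed for Sxl splicing, had 46.2% and 70.1% of its region under H3K4me1 at days 10 and 50. H3K27ac covered 2.32% and 10.8%. Spf45, a splicing factor, had 7.57% and 15.1% under H3K4me1, and Ythdc1, the nuclear reader of m6A, 55.9% and 63.0%. For H3K27ac 6 of the 8 were higher at day 50 and 2 lower, and vir, nito (8.92% and 17.4%) and Mettl3 (8.05% and 15.8%) were past 1.5-fold. Over all genes with an H3K27ac peak 71.6% were higher and 22.7% past 1.5-fold. Spf45 had 25.3% and 32.7%. In H3K4me1 4 were higher and 4 lower.

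Among 5 splicing factors and outputs of Sxl and Tra, all 5 had a higher H3K27ac share at day 50, as did 71.6% of all genes with a peak. In H3K4me1 2 were higher, msl-2 and x16, and 3 lower, and the median difference was -1.31 percentage points. Of all genes with an H3K4me1 peak 51.7% were higher and 48.0% lower. msl-2, the dosage compensation gene that Sxl represses in females, had 9.41% and 17.9% under H3K27ac and 45.7% and 53.7% under H3K4me1. x16, an SR protein gene, had 19.7% and 21.5% under H3K27ac and 32.3% and 38.8% under H3K4me1.

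Of 6 cofactors of Dsx and Fru, 3 were lower and 3 higher in H3K4me1, and 5 higher and 1 lower in H3K27ac. The background of marked genes was 48.0% lower and 51.7% higher in H3K4me1 and 71.6% higher in H3K27ac. ix, the female partner of Dsx, had 20.2% and 8.18% of its region under H3K4me1 while H3K27ac covered 36.1% and 37.2%. The gene of the heterochromatin protein HP1a had 16.8% and 11.1% under H3K4me1 and 18.4% and 20.0% under H3K27ac. HDAC1 had 47.0% and 49.5% under H3K4me1 and 11.4% and 16.6% under H3K27ac, and the BTB gene ttk had 21.1% and 24.7% under H3K27ac.

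Neural genes that act with or below fru and dsx were lower in H3K4me1 at day 50 in 7 of 7 cases, against 48.0% of all marked genes and 86.3% of the long regions, a class that holds tou and bab1. The smallest difference, that of dsf, was -0.111 percentage points. The largest differences were those of the ARID-domain gene retn (19.4% and 13.7%), bab2, which encodes a BTB factor (20.1% and 15.3%), and dati on chromosome 4 (23.9% and 20.6%). For H3K27ac 4 were higher and 1 lower, and retn and dsf, a nuclear receptor gene of courtship neurons, had no peak. Of those with an H3K27ac peak 80.0% were thus higher, against 71.6% of all genes with one and 21.1% of the long regions. The chromatin remodelling gene tou had 40.2% and 35.6%, dati 2.28% and 6.19%, and the axon guidance receptor gene robo1 1.87% and 3.03%.

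Of 7 genes with sex-biased expression in heads, 5 had no peak of either mark at either age, whereas 10652 of all 13946 genes had an H3K4me1 peak. These were the yolk protein genes Yp1 and Yp2, the male courtship gene to, fit, and Cyp4d21, also known as sxe1. Yp3 had H3K4me1 over 16.1% and 12.1% of its region and H3K27ac over 15.4% and 23.2%. sxe2 had 8.77% and 9.93% under H3K4me1, no H3K27ac peak at day 10 and 1.89% at day 50.

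**Figure D5:**
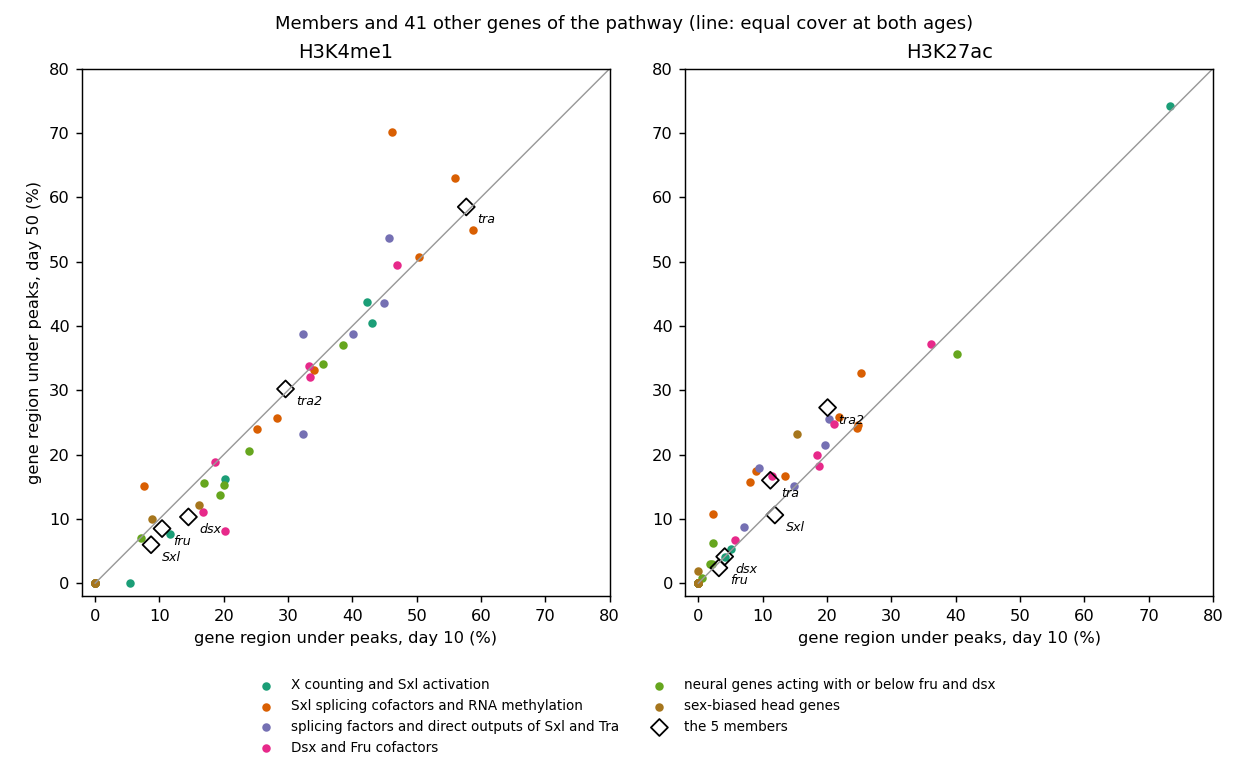
Share of the gene region under peaks at day 10 (x axis) and day 50 (y axis), in percent, for the 5 members (open diamonds) and the 41 other pathway genes (dots, coloured by group), with the line of equal shares. Points below the line have a lower share at day 50. In H3K4me1 22 of the 41 genes lie below the line and in H3K27ac 24 lie above it.

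Genes of like length with the most similar 4 shares (2 marks, 2 ages) were found by Euclidean distance in percentage points. For fru, among 107 genes, they were heph, which encodes a polypyrimidine tract-binding protein (10.4% and 7.63% under H3K4me1, 3.41% and 2.08% under H3K27ac, distance 0.935), klar (1.38) and mtgo (1.59), and the median distance was 10.0. For dsx, among 529, they were Rgk1 (1.35), CG42458 (1.35) and the FGF gene ths (1.88). For Sxl, among 837, they were CG2841 (1.45), 2mit (1.66) and plh (2.60). For tra, among 7751, they were EndoG (2.24), CG44249 (2.63) and Pmvk (2.70), and for tra2, among 7943, CG17985 (1.45), bug (2.81) and CG3907 (2.91).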

How the data were processed

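Chromatin of male heads was digested with micrococcal nuclease, briefly sonicated and precipitated with antibodies to H3K4me1 or H3K27ac, per the labels' protocols. Tools listed, per the submitters' processing notes, are STAR 2.5.3a, MACS2 2.1.1, Trim Galore, FastQC and deepTools, and the build is BDGP6. Their settings are not given here. The authors deposited 4 peak lists, and the peak names show that replicates were pooled. Per peak they hold a fold ratio over background, -log10 p and -log10 q, a score derived from q, and a summit offset, all deposited by the authors. The score, p-value and offset columns were not needed. The narrowest peak spanned 147 bp and the lowest -log10 q was 1.30. A peak list shows only what passed that threshold, which depends on a depth that the files do not give.

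The 7 main chromosome sequences were used, with gene positions of Release 6 from RefSeq, without strand. For this reason windows planned from the gene start were measured from the low-coordinate end. No promoter or protein sequence was used. Bases under peaks were counted per gene region with Python 3.11.15, pandas 2.3.3 and numpy 2.4.6, and exact (Clopper-Pearson) 95% intervals with scipy 1.17.1. The counting was tested on simulated peaks. Peaks were shared if they overlapped by 1 base. A gene differed at 1.5-fold in covered bases, as a description. The members, the 41 pathway genes in 6 groups and the marker genes were chosen with earlier results of these data known. The strongest and widest peak per gene and list were planned to be named, and only some of them are given. Named were all members, up to 3 genes per group and mark with the largest difference, and the 3 nearest genes within 1.5-fold of the length. One gene that this rule names is not reported here. Other peaks, sites and genes in the text were picked after their values were seen. Settings tried were stricter q, the upper 50% of each list, equal peak numbers, gene bodies alone and an overlap of 50%.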

Additional observations from a re-analysis of the deposited data

How the results depend on the processing

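The H3K4me1 counts of members, 2 higher and 3 lower, were the same under all 4 settings of peak threshold and gene region. The H3K27ac counts turned from 3 higher and 2 lower to 2 and 3 with a -log10 q under 5 left out and with gene bodies alone. With the 50% of peaks highest in -log10 q, the H3K27ac counts of pathway genes were 14 higher and 11 lower, in place of 24 and 5. With peaks under a -log10 q of 5 left out, the lower ones numbered 10. The share of H3K27ac peaks of day 10 with a day 50 counterpart was 57.9% (11 of 19) with the upper 50%. The share of H3K27ac peaks on H3K4me1 was 53.6% at day 10 under the stricter q, and 42.1% at day 10 and 40% at day 50 with the upper 50%. These settings remove peaks by construction, and no other cause was tested. All other shares lay within the interval of the reported value.

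The H3K4me1 difference of each member had the same sign under the 4 settings, from -2.06 to -0.852 for fru, -4.26 to -0.359 for dsx, -2.95 to -0.855 for Sxl, 0.605 to 15.3 for tra and 0.369 to 0.686 for tra2. For H3K27ac the sign changed for fru with the upper 50% (0.181), for dsx with stricter q (-1.23) and the upper 50% (-1.11), and for tra2 with the gene body alone (-1.24, against 10.8 with the upper 50%), while it held for Sxl (-2.30 to -0.584) and tra (4.85 to 14.6). The number of reads behind the peaks is unknown, so an absent peak may be one that fell short of the threshold. No paired analysis was possible because each list pools both replicates, and for the same reason no replicate could be left out.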
